A study of Homo sapiens with 12 samples.

Results

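The control cells of this study existed in a pair of states, and the comparison described here sets them against each other: LM2 cells that had received a scramble small interfering RNA (siRNA) against LM2 cells that had received a scramble short hairpin RNA (shRNA). It takes 6 of the 12 libraries of the study, 3 in each group, which were taken by their group labels. All 26006 rows of the deposited table were considered, and 11929 genes whose 12 values averaged 1 FPKM or more were tested. FPKM counts sequenced fragments per transcript length, scaled to the mapped fragments of a library, so levels of different genes can be compared per length. LM2 is an established line, obtained from the human breast cancer cells MDA-MB-231 by selection for spread to the lung. The scramble shRNA group had been transduced and the scramble siRNA group transfected; neither sequence is meant to target a human transcript. The other 6 libraries were LM2 cells transduced with EZH2 shRNA and LM2 cells transfected with ZRANB1 siRNA, 3 each. All cells were grown in DMEM with serum and antibiotics. No other treatment separated the scramble groups in the labels. The time of harvest, the passage, the vector, the reagent and the number of hairpin or siRNA sequences have no entry in the sources used here. The way of delivery, time in culture and any processing batch therefore cannot be told apart in every difference below.

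Within each row the values of a group were sorted as text, in every one of the 15773 rows of the scramble shRNA group and the 15454 of the scramble siRNA group that held 3 distinct values. No library could therefore be traced across genes, left out or found to stand apart. The 3 values of a group are given below from lowest to highest. The number of reads behind them is unknown. Whether the 3 libraries of a group were grown as separate cultures is not stated in the labels; p-values thus measure only the spread among samples, and that spread may be technical. The cell line label was checked against markers. VIM, CD44, CAV1, AXL, EGFR and MSN, which MDA-MB-231 cells express, had mean levels of at least 19.7 FPKM in both groups. CDKN2A and CDKN2B, which are deleted in MDA-MB-231, and the progesterone receptor gene PGR were listed at 0 in all 6 libraries, and CDH1, which encodes E-cadherin, was at most 0.0781 FPKM. GATA3, a luminal transcription factor gene listed here among those low in this line, was present, at 5.78, 7.12 and 7.33 FPKM with the scramble shRNA and 3.55, 3.75 and 3.79 FPKM with the scramble siRNA. Of markers of other cell types, 9 of 11 haematopoietic, 6 of 7 endothelial and 8 of 9 fibroblast genes had means under 1 FPKM in both groups. With the scramble siRNA the summed level of these 3 lists ran from 39.0 to 42.9, from 0.566 to 1.43 and from 8.15 to 9.55 FPKM, and with the scramble shRNA from 36.8 to 41.9, from 1.95 to 2.74 and from 21.7 to 27.8 FPKM, as sums of the lowest and of the highest values. CD68 made up most of the first sum, and COL1A1 most of the last. The monocyte marker CD14 fell from 3.21, 3.904 and 4.57 to 0.0904, 0.234 and 0.405 FPKM (log2 difference -1.98, adjusted p 3.19e-06), and the endothelial marker PECAM1, which did not pass the filter on low values, had means of 1.57 and 0.316 FPKM with the scramble shRNA and the scramble siRNA. The part of these markers in the results below was not tested. PTPRC, the pan-leukocyte marker, was at most 0.0275 FPKM, and the fibroblast marker PDGFRA was listed at 0 throughout.

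Both targeted genes of the study were measured in these controls. EZH2, the methyltransferase of Polycomb repressive complex 2, stood at 34.2, 35.6 and 36.3 FPKM with the scramble shRNA and at 46.5, 48.7 and 50.6 FPKM with the scramble siRNA. The groups did not overlap, and the log2 difference of 0.45 had an adjusted p of 2.31e-04 by limma. ZRANB1, which encodes a deubiquitinase, stood at 11.8, 12.9 and 14.2 FPKM with the scramble shRNA and at 10.5, 11.5 and 12.1 FPKM with the scramble siRNA. These ranges overlapped, and the difference of -0.18 (95% interval -0.42 to 0.07) was not called, with an adjusted p of 0.211. A two-sided exact permutation test of 3 values against 3 cannot go below p = 0.1; it gave 0.1 for EZH2 and 0.2 for ZRANB1.

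Some background helps to read the programmes that follow. In MDA-MB-231 cells NF-kB, a family of transcription factors held in the cytoplasm by IkB proteins, is known to be active without added stimulus and drives cytokine, chemokine and MHC class I genes. Sterol regulatory element-binding proteins (SREBPs), which are kept in the endoplasmic reticulum by INSIG proteins while cholesterol is plentiful, drive the genes of cholesterol and fatty acid synthesis. Hypoxia-inducible factors (HIFs) are broken down while oxygen is present and otherwise raise genes of glycolysis, blood vessel growth and collagen hydroxylation. A hairpin is transcribed inside the cell and cut by Dicer, whereas an siRNA is delivered as a finished duplex.

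The scramble groups differed in 6036 of 11929 genes (50.6%) at an adjusted p below 0.05 by limma on log2(FPKM + 1), with 3045 genes (25.5%) higher and 2991 (25.1%) lower with the scramble siRNA. The median difference over all genes was 0.01 on the log2 scale. All 3 values lay outside the range of the other group in 7150 genes (59.9%), 3671 above it (30.8%) and 3479 below it (29.2%). The larger differences were mostly falls: 394 genes (3.3%) rose and 618 (5.18%) fell by at least 1 on the log2 scale, 47 (0.394%) rose and 138 (1.16%) fell by at least 2, and 11 (0.0922%) rose and 42 (0.352%) fell by at least 3. Differences here are scramble siRNA minus scramble shRNA, and since 1 FPKM was added before the logarithm they understate the change of weakly expressed genes; a signed value in parentheses after a gene is such a log2 difference. In bulk RNA, fewer cells that express a gene and less RNA per cell cannot be told apart.

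**Figure D1:**
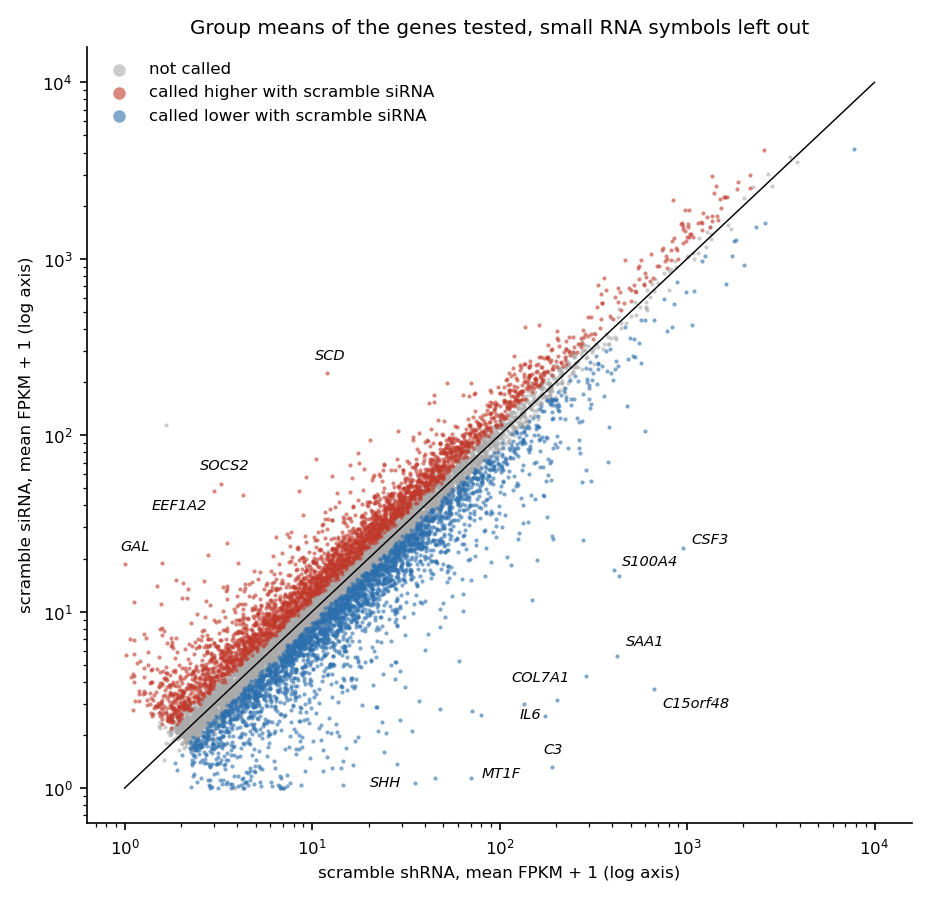
Mean FPKM + 1 of each tested gene with the scramble siRNA (vertical, log axis) against the scramble shRNA (horizontal, log axis), with small RNA symbols left out; each point is 1 gene, red and blue points were called higher and lower with the scramble siRNA at an adjusted p below 0.05, and the line marks equal levels. The named genes far below the line, from SHH to CSF3, have larger log2 differences than SCD, GAL, SOCS2 and EEF1A2 above it.

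With small RNA symbols left out, of which some had larger differences, the largest rise belonged to SCD, which encodes stearoyl-CoA desaturase, the enzyme that places the first double bond in saturated fatty acids. SCD stood at 10.6, 10.8 and 11.9 FPKM with the scramble shRNA and at 212, 225 and 238 FPKM with the scramble siRNA, so the mean was 20.3 times as high. Its log2 difference was 4.23 (adjusted p 3.72e-12). GAL, the gene of the neuropeptide galanin, was listed at 0 in all 3 scramble shRNA libraries and stood at 15.3, 16.2 and 21.4 FPKM with the scramble siRNA. SOCS2, an inhibitor of cytokine receptor signalling, rose from 1.84, 2.49 and 2.502 to 49.1, 49.8 and 56.04 FPKM. EEF1A2, a tissue-restricted form of a translation elongation factor, rose from 1.89, 1.92 and 2.14 to 40.1, 46.7 and 55.3 FPKM. In these 4 genes the lowest scramble siRNA value was far above the highest scramble shRNA value. Other rises among the 15 largest had log2 differences of 3.45 for the keratin-associated protein gene KRTAP2-3, 3.303 for the glycosyltransferase gene B4GALNT4, 3.24 for the nuclear pore gene NUP210, 2.95 for the apolipoprotein gene APOC1, 2.83 for DBNDD1, 2.82 for PCBD1, 2.803 for the growth factor receptor gene FGFR4, 2.64 for the fibulin gene EFEMP1 and 2.63 for the lipase gene LIPG. APOC1, LIPG and SCD belong to lipid metabolism by their known roles, a grouping made after the values were seen.

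The largest fall belonged to C15orf48, which encodes a small mitochondrial protein. C15orf48 stood at 615, 661 and 713 FPKM with the scramble shRNA and at 2.12, 2.46 and 3.32 FPKM with the scramble siRNA, a log2 difference of -7.52 (adjusted p 2.31e-12). COL7A1, the collagen of anchoring fibrils beneath epithelia, fell from 242, 306 and 318 to 2.799, 3.31 and 3.905 FPKM. S100A4, a calcium-binding protein associated with metastasis, fell from 393, 396 and 427 to 15.1, 15.8 and 17.98 FPKM. In each of these genes the groups were separated by more than 100 FPKM. ALOX5AP, which presents arachidonic acid to 5-lipoxygenase for leukotriene synthesis, fell from 42.8, 44.03 and 45.8 to 0, 0.113 and 0.326 FPKM. SHH, the hedgehog ligand, fell from 26.8, 36.6 and 40.4 to 0, 0 and 0.212 FPKM, and EBI3, a subunit shared by heterodimeric cytokines, fell (-4.37). Of the 15 largest falls, C3, SAA1, CXCL1, IL6, CXCL8, CSF3, IL1B and CSF2 are members of the inflammatory lists and are described with them.

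Most genes of the inflammatory programme fell. Of 131 tested genes in its 6 lists, 103 fell, 8 rose and 20 were not called. The median log2 difference was -1.30, against 0.01 over all genes tested. Differences of at least 1 were reached by 80 of the falls and 2 of the rises. The plot of differences by gene list shows these 6 lists to the left of 0, apart from single members.

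**Figure D2:**
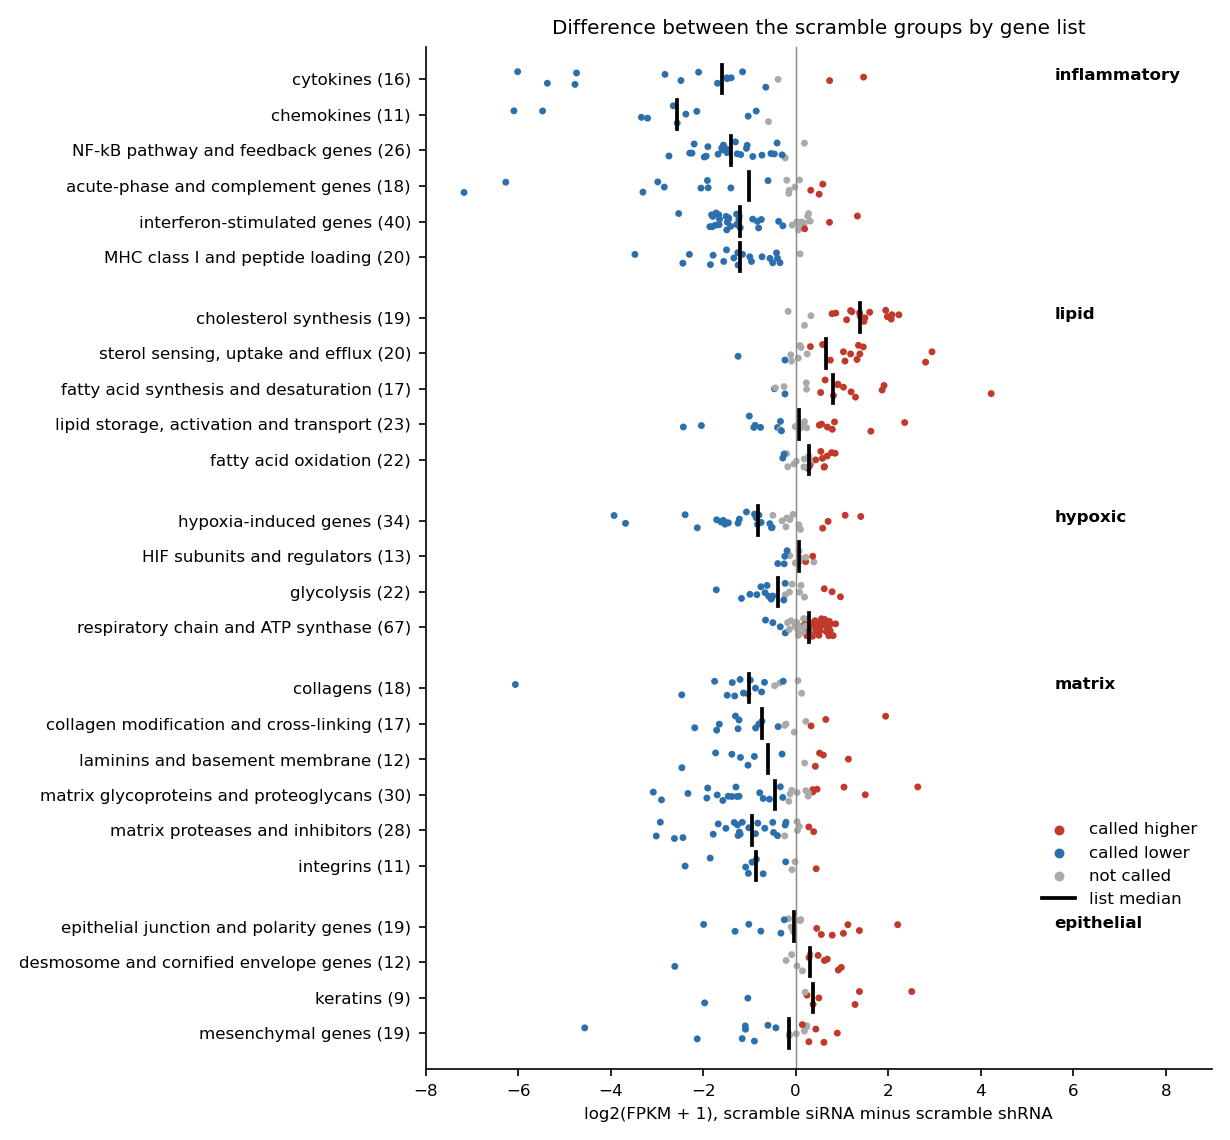
Log2(FPKM + 1) difference between the scramble siRNA and scramble shRNA groups (horizontal) for each tested gene of 25 lists in 5 programmes (vertical, number of tested genes in parentheses); each point is 1 gene, coloured by the call at an adjusted p below 0.05, and the black bar is the list median. Medians run from -2.56 for chemokines to 1.39 for cholesterol synthesis.

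Cytokine genes had 2 rises and 13 falls among 16 tested, with a median of -1.59. IL6, which encodes an inducer of the acute-phase response, stood at 194, 203 and 208 FPKM with the scramble shRNA and at 1.99, 1.998 and 2.46 FPKM with the scramble siRNA. The mean with the scramble shRNA was 93.7 times the mean with the scramble siRNA, and the log2 difference of -6.01 had an adjusted p of 1.76e-12. CSF3, the granulocyte growth factor gene, stood at 867, 940.3 and 1038 and at 20.7, 22.5 and 22.7 FPKM in the same order of groups, and IL1B, the interleukin-1 beta gene, at 425, 438 and 441 and at 14.01, 15.1 and 15.8 FPKM. The groups were far apart in all of these genes, although CSF3 and IL1B transcripts remained above 10 FPKM with the scramble siRNA. CSF2, the granulocyte-macrophage growth factor gene, fell from 64.7, 65.1 and 82.1 to 1.11, 1.52 and 2.59 FPKM. IL11 and LIF, which signal through the same receptor subunit as IL6, fell (-2.48 and -1.49). IL1A, the interleukin-1 alpha gene, fell from 5.44, 6.54 and 7.09 to 0, 0.0289 and 0.07198 FPKM, and TNFSF15, a cytokine of the tumour necrosis factor family, from 2.13, 2.44 and 3.01 to 0.0649, 0.0778 and 0.119 FPKM. IL18 went the other way. This interleukin-1 family cytokine, which is made without a signal sequence and released after caspase cleavage, rose from 22.5, 22.9 and 24.2 to 57.8, 64.04 and 77.2 FPKM, a log2 difference of 1.47 (adjusted p 1.53e-06). IL12A, a subunit of interleukin-12, rose by 0.73 at levels under 4 FPKM. IL7 was not called, with a difference of -0.38 and an adjusted p of 0.139.

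Chemokine genes had 0 rises and 10 falls among 11 tested, with a median of -2.56. CXCL1, a neutrophil attractant, stood at 158, 177 and 188 FPKM with the scramble shRNA and at 1.37, 1.52 and 1.84 FPKM with the scramble siRNA. CXCL8, the gene of interleukin-8, stood at 105, 142 and 156 and 1.81, 1.97 and 2.27 FPKM. The log2 differences were -6.09 and -5.47, and the adjusted p-values 2.31e-12 and 6.39e-10. CXCL2 and CXCL3 fell (-3.33 and -3.201); CXCL1, CXCL2 and CXCL3 are close copies, so the split of reads among them is uncertain. The interferon-inducible T cell attractants CXCL10 and CXCL11 fell from 4.998, 5.19 and 6.55 to 0, 0.0632 and 0.0743 FPKM and from 4.01, 5.64 and 5.74 to 0, 0.04099 and 0.04696 FPKM. CX3CL1 and CCL20 fell (-2.37 and -2.14). CCL26 was not called, with a difference of -0.59 and an adjusted p of 0.133.

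Genes of the NF-kB pathway and its feedback had 0 rises and 24 falls among 26 tested, with a median of -1.39. NFKBIA, which encodes the inhibitor IkB alpha and is itself switched on by NF-kB, stood at 86.9, 90.4 and 91.4 FPKM with the scramble shRNA and at 18.1, 18.1 and 18.3 FPKM with the scramble siRNA (log2 difference -2.24, adjusted p 2.29e-10). TNFAIP3, the deubiquitinase A20 that ends NF-kB signalling, fell from 7.82, 8.16 and 8.34 to 1.37, 1.47 and 1.49 FPKM. ICAM1, an adhesion molecule for leukocytes, fell from 37.1, 39.1 and 40.9 to 4.25, 5.14 and 5.69 FPKM. The spread within a group was small in all 3 of these genes beside the distance between the groups. TRAF1, an adaptor of tumour necrosis factor receptors, fell (-2.29), the lipopolysaccharide receptor gene TLR4 (-2.19), the kinase genes IKBKE (-1.98) and IRAK2 (-1.58), and the transcription factor gene IRF1 (-1.497). Not called were CHUK, which encodes a subunit of the IkB kinase, at 0.19 (adjusted p 0.189), and NFKBIB at -0.23 (adjusted p 0.393).

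Promoter stretches of 6 genes of these lists are shown to let the letters of the NF-kB motif be read beside the values, since most members of the lists fell. The sequences are from the RefSeq promoter table (build GRCh38.p14, 250 bases before to 50 after each start). The NF-kB consensus, searched on both strands as a pattern of 10 letters, was found in 2958 of 27305 promoters (10.8%). Among genes that fell, it was found in 6 of 8 chemokine promoters in the table, in 2 of 9 of cytokines, in 7 of 21 of NF-kB pathway genes, in 3 of 7 of acute-phase and complement genes and in 5 of 15 of MHC class I genes. Among genes that rose, it was found in 1 of 1 cytokine promoter and in 0 of 3 of acute-phase and complement genes. A match describes letters only, and binding was not measured. Stretches of 80 to 90 bases upstream of the start are printed 5′ to 3′ on the strand of the gene, with matches in capitals; overlapping matches form 1 run of capitals. IL6 lies at chr7:22727090-22727169 (plus strand), CXCL1 at chr4:73869278-73869357 (plus), CXCL10 at chr4:76023598-76023687 (minus), TNFAIP3 at chr6:137867159-137867238 (plus), NFKBIA at chr14:35404785-35404864 (minus) and B2M at chr15:44711357-44711436 (plus).
IL6: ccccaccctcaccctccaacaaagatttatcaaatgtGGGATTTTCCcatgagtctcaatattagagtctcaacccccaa
CXCL1: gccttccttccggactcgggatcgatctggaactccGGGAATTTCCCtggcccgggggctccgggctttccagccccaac
CXCL10: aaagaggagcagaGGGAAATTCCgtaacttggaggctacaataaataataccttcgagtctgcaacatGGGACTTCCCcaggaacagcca
TNFAIP3: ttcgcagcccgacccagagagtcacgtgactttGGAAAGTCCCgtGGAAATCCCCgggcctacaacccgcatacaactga
NFKBIA: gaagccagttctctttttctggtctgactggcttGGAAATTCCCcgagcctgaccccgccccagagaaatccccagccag
B2M: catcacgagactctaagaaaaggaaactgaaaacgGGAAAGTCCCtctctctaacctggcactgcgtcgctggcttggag

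Acute-phase and complement genes had 3 rises and 10 falls among 18 tested, with a median of -0.999. C3, the central complement component, stood at 174, 195 and 197 FPKM with the scramble shRNA and at 0.212, 0.246 and 0.514 FPKM with the scramble siRNA, a log2 difference of -7.17 (adjusted p 1.76e-12). SAA1, an acute-phase apolipoprotein, fell from 401, 428 and 445 to 3.71, 4.38 and 5.64 FPKM; it has near-identical copies, so its level is uncertain. CFB, a protease of the alternative complement pathway, fell from 9.63, 10.7 and 12.5 to 0.3904, 0.5501 and 0.587 FPKM. All of these were near absent or low with the scramble siRNA. The antiprotease gene SERPINA1 fell (-3.301), the siderophore-binding lipocalin gene LCN2 (-2.84), and the complement protease gene C1S (-1.91). The cyclooxygenase gene PTGS2 and the synthase gene PTGES, of successive steps in making prostaglandin E2, fell (-2.05 and -1.89). Other genes of that pathway were not in the list. Rises were seen in the cytokine signalling inhibitor SOCS3 (0.51, adjusted p 0.00143), in the complement protease CFD (0.59, 0.0294) and in the complement-restraining membrane protein CD55 (0.33, 0.037), of which CFD and CD55 lost the call in some other settings. The membrane inhibitors CD46 and CD59 were not called, at -0.19 and -0.14.

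Interferon-stimulated genes had 3 rises and 27 falls among 40 tested, with a median of -1.21. IFIH1, which encodes the double-stranded RNA sensor MDA5, stood at 10.7, 11.1 and 11.2 FPKM with the scramble shRNA and at 0.9603, 1.12 and 1.18 FPKM with the scramble siRNA (log2 difference -2.53, adjusted p 4.76e-09). DDX58, the gene of the sensor RIG-I, fell from 31.5, 32.5 and 37.6 to 9.34, 9.61 and 11.3 FPKM. IFIT3, an RNA-binding antiviral gene, fell from 91.6, 93.96 and 98.2 to 24.97, 25.1 and 26.2 FPKM. None of these ranges overlapped. IFIT1, OAS2, IFI44, HERC5 and PARP14 fell (-1.49, -1.79, -1.74, -1.48 and -1.22). The list was not uniform. MX1, an antiviral GTPase gene, stood at 0.7597, 0.946 and 1.85 FPKM with the scramble shRNA and was higher with the scramble siRNA at 3.88, 4.59 and 4.73 FPKM (log2 difference 1.33, adjusted p 5.77e-05). IFITM2, an entry inhibitor of viruses, rose by 0.73, and ADAR, an RNA-editing enzyme, by 0.19, a call that other settings did not keep throughout. IFITM3, another entry inhibitor, was not called, with a 95% interval of -0.27 to 0.12.

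MHC class I and peptide-loading genes had 0 rises and 19 falls among 20 tested, with a median of -1.197. HLA-B stood at 253, 278 and 302 FPKM with the scramble shRNA and at 19.1, 24.4 and 29.7 FPKM with the scramble siRNA, and HLA-C fell (-2.297); class I genes are similar and variable, so the split of their reads is uncertain. B2M, the invariant light chain, fell from 941, 1101 and 1133 to 404, 405 and 444 FPKM (log2 difference -1.34, adjusted p 3.96e-07). TAP1, a subunit of the peptide transporter, fell from 18.1, 19.8 and 23.4 to 4.58, 4.58 and 5.75 FPKM. The difference thus covered the heavy chains, the light chain and the transporter, with no overlap of groups in any of these genes. The immunoproteasome genes PSMB9 and PSMB8 fell (-2.44 and -1.24), NLRC5, the transactivator of class I genes, (-1.25), and the trimming peptidase gene ERAP2 (-1.15). The chaperone gene CANX was not called, at 0.096 (adjusted p 0.461).

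Lipid genes were the main programme on the other side. Of 101 tested genes in its 5 lists, 56 rose, 15 fell and 30 were not called. The median was 0.54, or 0.32 with no filter on low values. In cholesterol synthesis 16 of 19 tested genes rose and 0 fell, with a median of 1.39, and 14 of the rises were at least 1 on the log2 scale. HMGCS1, which makes HMG-CoA at the entry of the pathway, stood at 4.82, 4.87 and 6.49 FPKM with the scramble shRNA and at 24.2, 24.3 and 28.4 FPKM with the scramble siRNA (log2 difference 2.07, adjusted p 2.69e-07). MVK, the mevalonate kinase gene, rose from 6.76, 8.35 and 8.63 to 30.4, 35.8 and 36.3 FPKM. FDPS, which joins isoprene units, rose from 69.3, 74.4 and 76.4 to 165, 168 and 182 FPKM. Every scramble siRNA value was above every scramble shRNA value in these genes. FDFT1, squalene synthase, rose by 1.497, LSS, which closes the sterol rings, by 1.45, and CYP51A1, which removes a methyl group from lanosterol, by 2.08. DHCR7, a reductase at the end of the pathway, rose from 15.1, 19.6 and 23.1 to 84.4, 95.8 and 98.9 FPKM. PMVK and EBP were not called, at 0.33 (adjusted p 0.0784) and -0.16 (adjusted p 0.171).

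**Figure D3:**
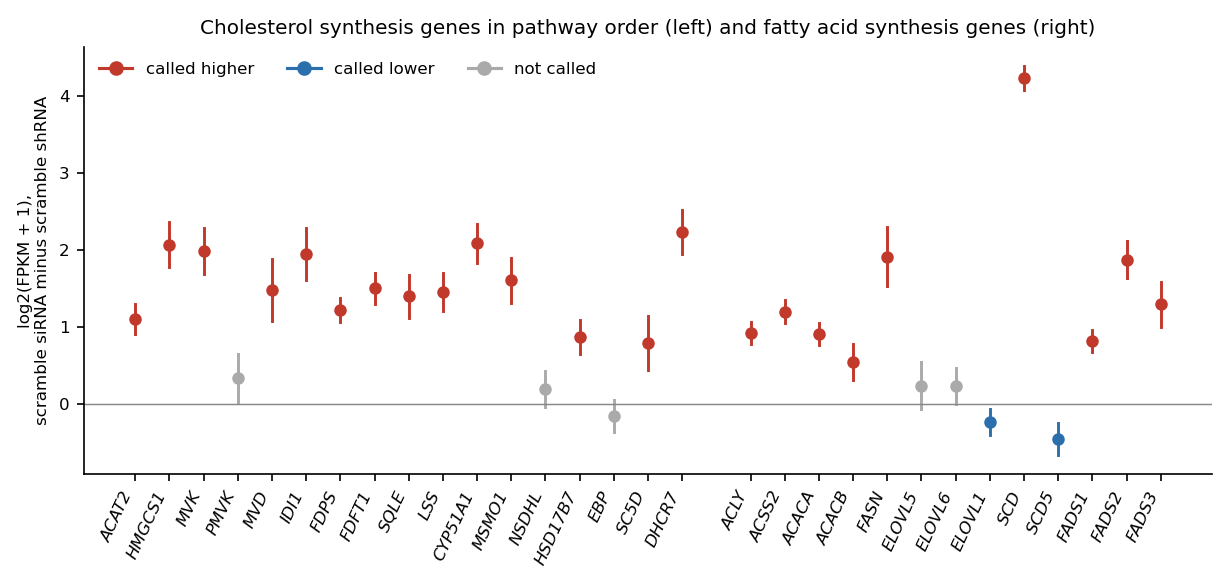
Log2(FPKM + 1) difference between the scramble siRNA and scramble shRNA groups (vertical) for 17 cholesterol synthesis genes in pathway order and for 13 genes of fatty acid synthesis; points are limma estimates, bars their 95% intervals, and colours the call at an adjusted p below 0.05. The 3 grey points among the cholesterol genes are PMVK, NSDHL and EBP, and SCD at 4.23 stands above all others shown.

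Genes of sterol sensing, uptake and efflux had 12 rises and 2 falls among 20 tested, with a median of 0.67. SREBF2, which encodes the SREBP of cholesterol genes, stood at 19.4, 21.8 and 22.7 FPKM with the scramble shRNA and at 42.4, 47.3 and 47.4 FPKM with the scramble siRNA, and SREBF1, whose products favour fatty acid genes, at 15.6, 18.6 and 18.8 and 42.3, 49.5 and 51.8 FPKM. The groups were separate in both, with log2 differences of 1.07 (adjusted p 9.83e-07) and 1.39 (adjusted p 7.58e-06). SCARB1, a lipoprotein receptor, rose by 1.36, NPC1, the exporter of cholesterol from lysosomes, by 1.19, STARD4, a sterol carrier, by 1.46, and LPCAT3, a phospholipid remodelling enzyme, by 1.33. INSIG2, a retention factor of SREBPs, fell from 15.3, 19.8 and 21.7 to 5.905, 7.32 and 9.07 FPKM (log2 difference -1.24, adjusted p 1.10e-04), and NPC2, the soluble partner of NPC1, fell (-0.23). NR1H2 and SOAT1 were not called, at 0.06 and 0.25.

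Genes of fatty acid synthesis and desaturation had 11 rises and 2 falls among 17 tested, with a median of 0.82. FASN, fatty acid synthase, stood at 36.8, 45.8 and 49.1 FPKM with the scramble shRNA and at 138, 180.2 and 186 FPKM with the scramble siRNA (log2 difference 1.91, adjusted p 3.76e-06). ACLY, which makes cytosolic acetyl-CoA from citrate, rose from 58.1, 58.3 and 58.5 to 107, 111 and 114 FPKM, and ACACA, which carboxylates it, from 7.39, 7.69 and 8.23 to 14.96, 15.6 and 15.8 FPKM. The groups were separate at each of these steps. FADS2 rose by 1.87, FADS3 by 1.29 and FADS1 by 0.82; FADS1 and FADS2 encode desaturases of polyunsaturated fatty acids. ACSS2, which makes acetyl-CoA from acetate, rose by 1.198. SCD5, a second stearoyl-CoA desaturase gene, fell from 11.9, 15.1 and 15.1 to 9.23, 9.797 and 10.6 FPKM while SCD rose, and the elongase gene ELOVL1 fell (-0.23). The elongase genes ELOVL5 and ELOVL6 were not called, at 0.24 (adjusted p 0.174) and 0.23 (adjusted p 0.0922).

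The sterol response element, a pattern of 10 letters searched on both strands, was found in 42 of 27305 promoters (0.154%). It was found in 0 of 11 promoters of cholesterol synthesis genes that rose, in 1 of 9 of sterol sensing genes and in 1 of 10 of fatty acid synthesis genes. These letters are strict, and their absence from a window of 300 bases says nothing of the factor. Both promoters that held them are shown, with the motif in capitals: SREBF2 at chr22:41832935-41833014 (plus strand), and MID1IP1, which activates acetyl-CoA carboxylase, at chrX:38801384-38801458 (plus strand). MID1IP1 was named for this match and had a log2 difference of 0.64 (adjusted p 0.00154).
SREBF2: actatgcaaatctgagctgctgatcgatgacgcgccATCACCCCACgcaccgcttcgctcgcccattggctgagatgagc
MID1IP1: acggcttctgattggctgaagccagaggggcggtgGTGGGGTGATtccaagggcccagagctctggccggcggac

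Lipid storage and transport did not move in 1 direction, with 7 rises (30.4%) and 9 falls (39.1%) among 23 tested and a median of 0.07. Over all genes tested, 25.5% rose and 25.1% fell. LPIN1, which makes diacylglycerol, rose from 6.38, 6.63 and 6.81 to 20.7, 23.1 and 23.6 FPKM. PPARG, the nuclear receptor of fat cell genes, rose from 28.9, 30.3 and 34.5 to 55.5, 56.4 and 57.8 FPKM. ANGPTL4, an inhibitor of lipoprotein lipase, fell from 24.6, 26.5 and 28.7 to 3.09, 4.19 and 5.32 FPKM (log2 difference -2.43). Carriers and activating enzymes were divided too: FABP5 and FABP6 rose by 0.69 and 2.36, whereas the acyl-CoA synthetase gene ACSL5 fell (-2.04) and the triglyceride synthase gene DGAT2 (-0.905). G0S2, an inhibitor of the lipase PNPLA2, fell (-1.001), and PNPLA2 itself was not called, at -0.33 (adjusted p 0.0523). Fatty acid oxidation had 10 rises and 2 falls among 22 tested, with a median of 0.30 and no difference of 1 or more. CPT1A, which admits fatty acids to mitochondria, rose from 7.15, 7.52 and 8.33 to 13.7, 13.9 and 13.9 FPKM, and HADHA and HADHB, the trifunctional protein, rose by 0.58 and 0.68. The falls were HADH at -0.28 and ECI2 at -0.25, both lost in some other settings. ACADVL was not called, at -0.195.

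The hypoxic programme was divided between its lists. Of 136 tested genes, 46 rose (33.8%), 43 fell (31.6%) and 47 were not called, with a median of 0.08. Over all genes tested, 25.5% rose and 25.1% fell. Hypoxia-induced genes had 4 rises and 22 falls among 34 tested and a median of -0.81, whereas respiratory chain and ATP synthase genes had 37 rises and 4 falls among 67 and a median of 0.28. VEGFA, the vascular growth factor gene, stood at 168, 173 and 193 FPKM with the scramble shRNA and at 29.9, 34.4 and 35.3 FPKM with the scramble siRNA (log2 difference -2.39, adjusted p 5.32e-08). CA9, a carbonic anhydrase that acidifies the surroundings of the cell, fell from 20.6, 23.5 and 25.4 to 0.359, 0.572 and 0.8698 FPKM. STC1, a secreted calcium-regulating glycoprotein, fell from 139, 143 and 161 to 9.62, 10.5 and 11.8 FPKM. CA9 was under 1 FPKM in each scramble siRNA library, while VEGFA and STC1 were still expressed. The peptide gene ADM fell (-1.49), NDRG1 (-2.13), the glycolytic regulator PFKFB3 (-1.61), PPFIA4 (-1.57) and the collagen prolyl hydroxylase gene P4HA1 (-1.71). TXNIP, an inhibitor of glucose uptake, rose from 8.79, 9.49 and 10.9 to 26.4, 26.9 and 28.9 FPKM; the growth factor binder IGFBP3 rose by 1.07 and the carbonic anhydrase gene CA12 by 0.701. ERO1L and FAM162A were not called, at -0.29 and -0.12.

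HIF1A itself stood at 56.5, 64.7 and 69.04 FPKM with the scramble shRNA and at 78.2, 79.5 and 93.2 FPKM with the scramble siRNA. The ranges did not overlap, but the difference of 0.39 (95% interval 0.04 to 0.75) was not called, with an adjusted p of 0.0641, and passed in some other settings. Among HIF subunits and regulators 2 rose (15.4%) and 4 fell (30.8%) of 13, where 25.5% rose and 25.1% fell over all genes tested. The median of this list was 0.07, and no called difference reached 1. HIF1AN, which hydroxylates HIF in oxygen, rose by 0.22; the coactivator genes EP300 and CREBBP fell (-0.23 and -0.25), and each of these calls was lost in at least 1 other setting.

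Glycolysis genes had 3 rises and 13 falls among 22 tested, with a median of -0.38. PGK1, phosphoglycerate kinase, stood at 457, 489.6 and 493 FPKM with the scramble shRNA and at 142, 146 and 148 FPKM with the scramble siRNA (log2 difference -1.72, adjusted p 4.67e-09). The lactate dehydrogenase subunits parted. LDHA, the subunit that favours lactate production, fell from 1519, 1608 and 1729.5 to 679, 696 and 782 FPKM, and LDHB rose from 530.1, 568 and 604 to 919.7, 990.0 and 1031 FPKM, with adjusted p-values of 9.45e-07 and 4.61e-06. By FPKM, LDHA was above LDHB in each scramble shRNA library value, and LDHB above LDHA in each scramble siRNA value. The pyruvate kinase gene PKM fell (-0.75), PGM1 (-0.99) and ENO2 (-0.58), while the muscle phosphofructokinase gene PFKM rose by 0.62 and GPD1L by 0.97. GAPDH was not called, at 3222, 3574 and 3842 and 3586, 3828 and 3834 FPKM (95% interval -0.08 to 0.25). In the respiratory chain no rise reached 1. ATP5B, the catalytic subunit of ATP synthase, rose from 409, 433 and 436 to 666, 679 and 689.6 FPKM (0.67, adjusted p 7.64e-07), COX6A1 by 0.86 and NDUFA12 by 0.75. COX7B, NDUFA1 and NDUFS5 fell (-0.65, -0.49 and -0.22), and UQCRH and COX8A were not called.

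The hypoxia response core ACGTG, searched on both strands and contained in the E-box CACGTG, was found in 5900 of 27305 promoters (21.6%). It was found in 9 of 18 promoters of hypoxia-induced genes that fell and in 6 of 13 of glycolysis genes that fell, and among genes that rose in 1 of 4 and 1 of 3. Promoter stretches of CA9 (chr9:35673868-35673927, plus strand), LDHA (chr11:18394363-18394502, plus) and PGK1 (chrX:78104028-78104087, plus) show how these letters lie in genes that fell, with matches in capitals; the capitals of 6 letters in LDHA are the E-box.
CA9: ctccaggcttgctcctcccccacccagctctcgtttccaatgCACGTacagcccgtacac
LDHA: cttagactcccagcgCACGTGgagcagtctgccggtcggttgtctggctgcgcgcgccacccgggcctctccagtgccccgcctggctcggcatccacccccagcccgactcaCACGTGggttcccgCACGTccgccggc
PGK1: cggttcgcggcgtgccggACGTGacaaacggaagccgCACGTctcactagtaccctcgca

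The matrix programme fell, with 16 rises, 78 falls and 22 not called among 116 tested genes in 6 lists and a median of -0.81, or -0.27 with no filter on low values. Collagen genes had 0 rises and 14 falls among 18, with a median of -1.005. After COL7A1, the fibril regulator COL5A1 had the largest fall, from 35.9, 41.6 and 43.5 to 6.07, 6.48 and 6.91 FPKM. COL6A1 fell from 221, 283 and 298 to 67.9, 83.2 and 84.00 FPKM, and COL1A1, which is also a fibroblast marker, from 21.2, 26.1 and 26.4 to 7.62, 8.100 and 8.696 FPKM. The other fibroblast markers had means under 1 FPKM in both groups, as given above. COL1A2 and COL3A1 were at most 0.115 FPKM. PDGFRB was the highest of them, at 0.284, 0.405 and 0.709 FPKM with the scramble shRNA. With the scramble siRNA it stood at 0.53, 0.699 and 0.831 FPKM. COL13A1, COL17A1 and COL4A5 fell (-1.201, -1.13 and -0.67), and COL6A2 and COL18A1 were not called, at -0.34 and -0.46. Enzymes of collagen modification had 3 rises and 10 falls among 17, with a median of -0.73. The lysyl oxidases went both ways: LOXL4 fell from 6.17, 8.49 and 8.97 to 0.861, 0.957 and 0.995 FPKM and LOXL2 (-1.301), while LOXL1 rose from 1.84, 2.72 and 3.03 to 10.9, 12.98 and 13.5 FPKM. The AP-1 motif TGANTCA, present in 7.76% of all promoters, was found in 0 of 11 promoters of collagen genes that fell. In matrix protease and inhibitor genes it was found in 2 of 14 promoters of genes that fell and in 0 of 1 of genes that rose. In laminin and basement membrane genes it was found in 0 of 5 promoters of genes that fell and in 1 of 4 of genes that rose. The lysyl hydroxylase gene PLOD1 fell (-1.65), the prolyl hydroxylase gene P4HA2 (-1.25) and the procollagen protease gene BMP1 (-1.22); CRTAP and the transglutaminase gene TGM2 rose by 0.65 and 0.33.

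Laminins and other basement membrane genes had 4 rises and 7 falls among 12, with a median of -0.59. LAMB3, a chain of laminin-332, stood at 242, 285 and 293 FPKM with the scramble shRNA and at 107, 125 and 126 FPKM with the scramble siRNA (log2 difference -1.19, adjusted p 3.14e-06). LAMA3, the alpha chain of the same trimer, rose from 5.89, 5.96 and 5.99 to 9.41, 9.52 and 9.598 FPKM. These chains of 1 trimer thus differed in direction. LAMA5 fell (-1.73), LAMC1 (-0.89) and the agrin gene AGRN (-1.38), while NTN4 rose by 1.14 and the dystroglycan gene DAG1 by 0.52. Glycoproteins and proteoglycans had 6 rises and 17 falls among 30, with a median of -0.45. FN1, fibronectin, fell from 96.2, 97.7 and 102 to 34.4, 35.3 and 36.05 FPKM, and TNC, tenascin C, from 27.8, 31.4 and 32.1 to 2.53, 2.697 and 2.93 FPKM. TGFBI, THBS1, SPARC, SDC4 and SPOCK1 fell (-2.901, -1.57, -1.27, -2.33 and -1.92). EFEMP1, which encodes an elastic fibre fibulin, rose from 7.42, 8.74 and 8.82 to 54.1, 54.8 and 62.5 FPKM (log2 difference 2.64, adjusted p 5.47e-09), another fibulin gene, FBLN5, rose by 1.04, and MATN2 rose by 1.504. CYR61 and TGFB1 were not called, at -0.12 and 0.28.

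Proteases and inhibitors had 2 rises and 22 falls among 28, with a median of -0.94, and both kinds fell. The gelatinase gene MMP2 fell from 10.2, 11.8 and 12.6 to 0.779, 1.13 and 1.22 FPKM, and the collagenase gene MMP1 from 25.4, 26.9 and 28.7 to 3.78, 4.33 and 4.42 FPKM. TIMP3, a metalloproteinase inhibitor, fell (-1.26), SERPINB2 (-2.93), SERPINE2 (-1.22), ADAM8 (-3.01) and the cathepsin gene CTSB (-1.199). HTRA1 and ADAMTS1 rose by 0.28 and 0.39, and CST3 and F3 were not called. Integrins had 1 rise and 8 falls among 11, with a median of -0.85. ITGB4, which binds laminin-332, fell from 71.6, 88.3 and 88.6 to 13.1, 15.1 and 16.8 FPKM (log2 difference -2.39, adjusted p 4.61e-08). ITGA5, the fibronectin receptor chain, fell from 69.4, 72.99 and 76.8 to 19.2, 19.3 and 20.3 FPKM, and ITGB1, the most widely paired beta chain, fell (-0.94). ITGA6, ITGAV, ITGA3 and ITGB3 fell (-1.08, -1.02, -0.703 and -0.85), the leukocyte chain ITGB2 rose by 0.44, and ITGA2 was not called, with an interval of -0.29 to 0.26.

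The epithelial programme had no common direction. Of 111 listed genes 59 were tested. Of these 24 rose (40.7%), 17 fell (28.8%) and 18 were not called, where 25.5% rose and 25.1% fell over all genes tested. The median was 0.14, or -0.005 with no filter on low values. These pooled values mix epithelial and mesenchymal genes: the mesenchymal list held 19 of the 59, with 5 rises and 8 falls. Rises outnumbered falls in the keratin and desmosome lists, and the junction list had 7 and 6. Keratins had 6 rises and 2 falls among 9, with a median of 0.38. KRT19, a keratin of simple epithelia, stood at 6.32, 6.902 and 9.37 FPKM with the scramble shRNA and at 39.3, 49.1 and 53.7 FPKM with the scramble siRNA (log2 difference 2.51, adjusted p 2.90e-07). KRT7 rose by 1.28, KRT8 by 0.501 and KRT18 by 0.38; KRT81 rose by 1.38, with reads that may be shared with its close copy KRT86, which was not called. KRT17, a stress keratin, fell from 2.49, 2.74 and 3.88 to 0, 0 and 0.0648 FPKM, and KRT80 fell (-1.03). KRT8 and KRT18 lost their calls in some other settings. Of 24 listed keratins 9 were tested. KRT5, KRT6A, KRT6B, KRT14 and KRT16 did not pass the filter on low values, so classes of keratins were not compared. Junction and polarity genes had 7 rises (36.8%) and 6 falls (31.6%) among 19, with a median of -0.04. AP1M2, an epithelial sorting adaptor, rose from 10.6, 12.3 and 12.3 to 54.1, 58.99 and 59.99 FPKM, LLGL2 by 1.38, CD24 by 1.13 and EPCAM by 1.03. The tight junction gene CLDN7 fell from 10.8, 12.1 and 12.5 to 1.54, 2.501 and 2.76 FPKM, CLDN1 (-1.31), F11R (-1.01) and the transcription factor gene ELF3 (-0.75). The claudin gene CLDN12 was not called, at -0.04.

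Desmosome and cornified envelope genes had 6 rises and 1 fall among 12, with a median of 0.30. DSP, desmoplakin, rose from 12.8, 13.2 and 14.01 to 26.00, 27.6 and 28.7 FPKM, and PKP2, JUP and EVPL rose by 0.68, 0.49 and 0.92. PPL, periplakin, was the fall, from 5.43, 6.51 and 6.97 to 0.0913, 0.221 and 0.264 FPKM. Mesenchymal genes had 5 rises (26.3%) and 8 falls (42.1%) among 19, with a median of -0.14, where 25.5% rose and 25.1% fell over all genes tested. The most abundant of them, VIM, was not called, at 2553, 2966 and 2989 FPKM with the scramble shRNA and 2439, 2561 and 2720.1 FPKM with the scramble siRNA (95% interval -0.36 to 0.09). After S100A4, the cadherin gene CDH11 fell (-2.13), the transcription factor gene SNAI2 (-1.08), CD44, the hyaluronan receptor gene, (-1.16) and the ectonucleotidase gene NT5E (-1.09). TAGLN, FOXC1 and CDH4 rose by 0.900, 0.61 and 0.44. Luminal breast markers were mixed as well: of 12 listed genes, 7 passed the filter on low values, and of these ERBB2, KRT8, KRT18 and KRT19 rose and GATA3, XBP1 and SPDEF fell, while ESR1 and PGR were at most 0.0242 FPKM.

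**Figure D4:**
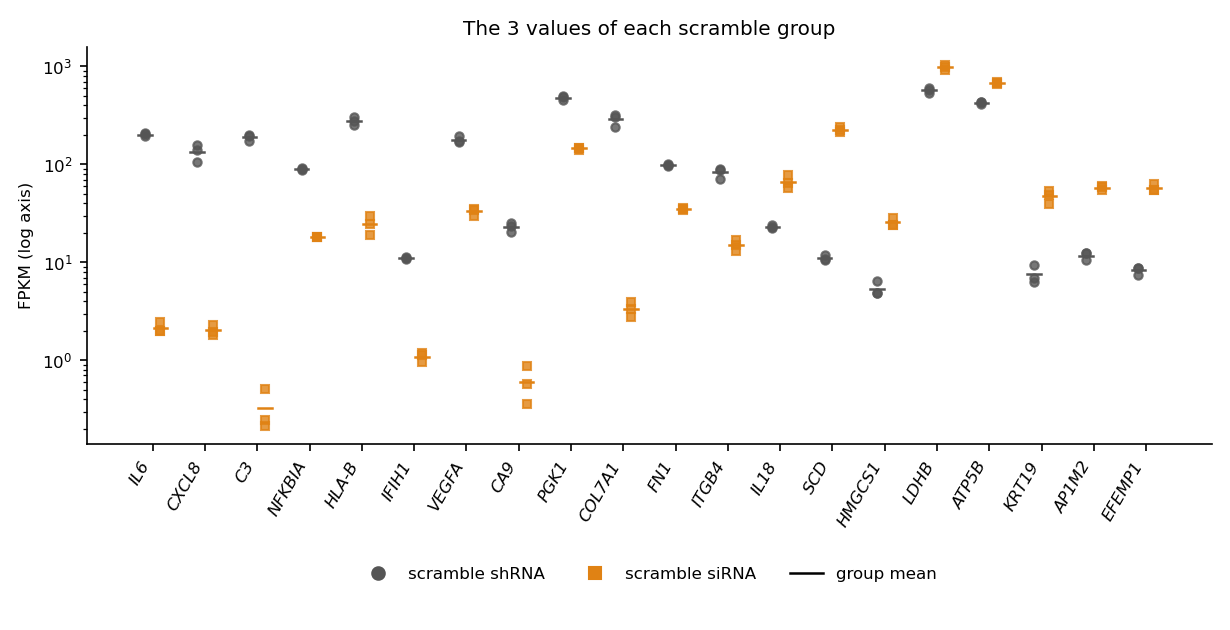
The 3 FPKM values (vertical, log axis) of 20 genes of the programmes (horizontal) in the scramble shRNA group, grey circles, and the scramble siRNA group, orange squares, with lines at the group means. The genes were picked among called genes, and the groups do not overlap in any of them, as in 59.9% of all genes tested. IL6 through ITGB4 are lower with the scramble siRNA, and IL18 through EFEMP1 are higher.

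A number of genes were near absent in 1 control state and expressed in the other. With limits of 0.5 and 5 FPKM, which were chosen after the data were seen, 20 genes were under the lower limit in all 3 scramble siRNA libraries and above the upper one in all 3 scramble shRNA libraries, and 2 of them were listed at 0 in the former. They include SHH, ALOX5AP, EBI3, LCN2, SERPINA1, IL1A, TRAF1, PPL, the formyl peptide receptor gene FPR1, the epithelial transcription factor gene EHF and the metallothionein gene MT1F. Only 6 genes met the reverse limits: GAL, B4GALNT4, LIPG, the inhibin subunit gene INHBB, the phosphatase gene PTP4A3 and SOCS2-AS1. INHBB stood at 0.175, 0.2801 and 0.359 FPKM with the scramble shRNA and at 6.15, 6.48 and 6.65 FPKM with the scramble siRNA. SOCS2-AS1 is antisense to SOCS2, and the strand setting of the counting is not given in the sources used here, so reads of SOCS2 and SOCS2-AS1 cannot be told apart.

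The knockdown groups gave a further pair of siRNA against shRNA that shares no library with the controls: cells with ZRANB1 siRNA against cells with EZH2 shRNA. These groups differ in the targeted gene too, so delivery and target cannot be told apart in them. In this pair 3380 genes (28.3%) were called, 1795 higher (15%) and 1585 lower (13.3%) with the siRNA. The inflammatory lists together had 8 higher and 76 lower of 131, with a median of -0.43, against -1.30 in the scramble pair. The lipid lists had 47 higher and 9 lower of 101 (median 0.28, against 0.54), and cholesterol synthesis had 15 higher and 0 lower of 19 (median 0.95). The hypoxic lists had 48 higher and 27 lower (median 0.13), the matrix lists 10 higher and 58 lower (median -0.32), and the epithelial lists 12 higher and 14 lower (median 0.02). Genes called higher in both pairs with the largest smaller change were led by GAL, at 4.205 and 3.47 in the scramble and knockdown pairs, EEF1A2 at 4.01 and 3.39, and KRTAP2-3 at 3.45 and 2.81. Among those lower in both, TSTD1 was at -2.81 and -1.59, COL7A1 at -6.06 and -1.35, and CA9 at -3.93 and -1.25.

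**Figure D5:**
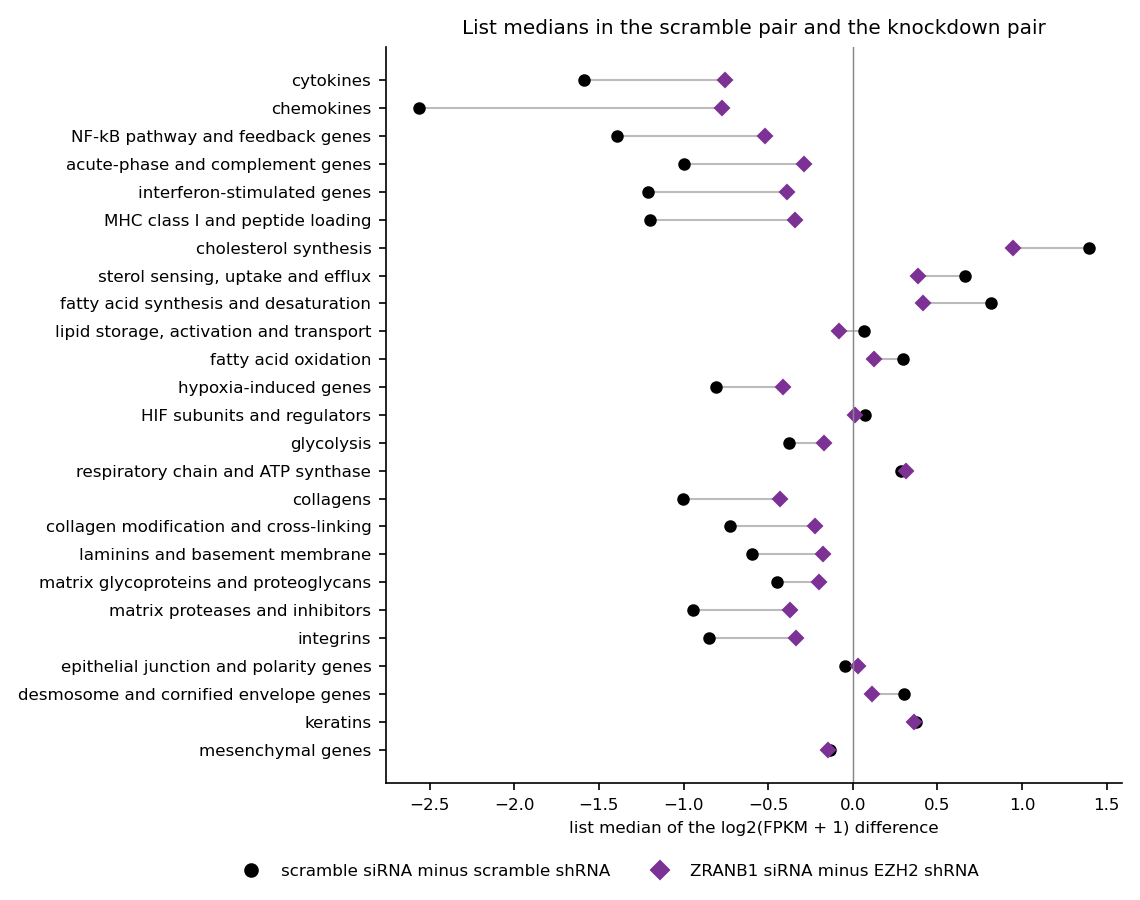
Median log2(FPKM + 1) difference (horizontal) of 25 gene lists (vertical) in the scramble pair, black circles, and in the knockdown pair, purple diamonds; both are siRNA minus shRNA. For chemokines the medians are -2.56 and -0.78, and for respiratory chain genes 0.28 and 0.32.

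The test of the difference between both pairs called 1251 genes (10.5%), 427 with a higher value in the scramble pair (3.58%) and 824 with a lower one (6.91%). Of the 131 inflammatory genes 1 was called higher and 88 lower in this test, and of the 116 matrix genes 6 and 53, so in those 88 and 53 genes the siRNA minus shRNA difference was lower in the controls than in the knockdown cells. In respiratory chain genes 0 and 2 of 67 were called. Beside these counts stands where the ZRANB1 siRNA group lay. In 54 genes whose EZH2 shRNA mean was at least 8 times the scramble siRNA mean, with the higher at 10 FPKM or more, the ZRANB1 siRNA mean lay at a median of 44.6% of the way from scramble siRNA to EZH2 shRNA (quartiles 40.7% and 48%, range -1.08% to 124%). In 13 genes with the reverse ratio the median was 52.7% (quartiles 49.8% and 57.5%). The part of this position in the difference between the pairs was not tested.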

How the data were processed

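RNA-seq of 12 LM2 libraries in 4 groups of 3 was analysed from 1 deposited table of FPKM values with 26006 rows. Per the submitters' processing notes, the authors worked with Cuffdiff and Cufflinks (both 2.2.1), TopHat2 (2.1.1) and SAMtools on genome build hg19; for their options, annotation, strand setting and any scaling of libraries, the sources used here have no entry. FPKM depends on transcript length and on all other genes of a library, and the depth is unknown, so precision is set by 3 values a group.

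For 440 symbols on several rows, the row of highest mean was used. Values were fitted as log2(FPKM + 1) with limma 3.58.1 in R 4.3.3, 1 mean per group, all 4 groups sharing the spread, a variance trend and Benjamini-Hochberg adjustment over the 11929 genes averaging 1 FPKM or more. Calls required an adjusted p below 0.05; "rose" and "fell" refer to called genes. Of the tested symbols, 10770 (90.3%) matched a name table of another build, so no gene coordinates of hg19 are given. Lists are described by counts and medians with no set test. The steps were run on simulated data in which only a small part of the genes differed between the scramble groups. In the deposited values 50.6% of genes were called, so that run does not measure the error of the calls made here. Figures used matplotlib 3.10.9 in Python 3.11.15.

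The comparison, gene lists and motifs were chosen with earlier results of these data known. Genes are named by a rule: EZH2 and ZRANB1; the 15 largest rises and falls whose groups did not overlap; from each list up to 8 called members by adjusted p, 3 against the main direction and the 2 most abundant not called; and 8 per direction for the difference between pairs and for genes called alike in both, without small RNA, LOC, LINC and read-through symbols. MID1IP1 and the genes near absent in 1 state were named after their values were seen, and some genes that the rule names are not reported here. Alternatives tried were a filter at 5 FPKM or none, a pseudocount of 0.1, a fit of the 6 scramble values alone, a variance prior without trend, removal of small RNA symbols, 2 scalings per group, a log2 difference of at least 1, rows of a symbol summed, and 1 value left out.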

Additional observations from a re-analysis of the deposited data

Results flagged for a closer look

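The gap between siRNA and shRNA cells differed between the scramble pair and the knockdown pair in 1251 genes by limma. The 8 genes per direction with the largest such difference are given here as the scramble pair value minus the knockdown pair value on the log2 scale. The fall was deeper in the controls for C15orf48 (-6.36), the complement gene C3 (-5.87), the acute-phase gene SAA1 (-5.404), the metallothionein gene MT1F (-5.05), the chemokine gene CXCL1 (-4.98), IL6 (-4.86), the collagen gene COL7A1 (-4.71) and the granulocyte growth factor gene CSF3 (-4.26). In the knockdown pair these 8 genes ranged from -1.35 for COL7A1 to -0.86 for SAA1. Mean IL6 levels were 201.5 FPKM with the scramble shRNA, 234.6 with EZH2 shRNA, 2.15 with the scramble siRNA and 105.3 with ZRANB1 siRNA. For CSF3 they were 948.4, 774.1, 21.94 and 360.4 FPKM in the same order. The part in these 8 genes of the ZRANB1 siRNA position described above was not tested. The difference was higher in the controls for SOCS2 (1.89), FABP6 (1.84), SCD (1.66), DMTN (1.64), NUDT8 (1.42), HRASLS (1.35), FAM171A2 (1.32) and MARCKSL1 (1.27), with adjusted p-values from 9.14e-07 for SCD to 0.0337 for NUDT8. MARCKSL1, an actin-associated gene, had scramble shRNA values of 43.6, 45.8 and 45.8 FPKM, scramble siRNA values of 96.8, 99.3 and 107, EZH2 shRNA values of 74.1, 81.02 and 81.3 and ZRANB1 siRNA values of 69.1, 72.6 and 73.99. MARCKSL1 was thus higher with the siRNA in the scramble pair, while in the knockdown pair its log2 difference was -0.13 (adjusted p 0.164). Groups of 3 values were not searched for outlying samples.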

How the results depend on the processing

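No paired analysis was possible because the values of a group stood in text order and no column followed a library; the planned replicate block was not run. With a log2 difference of at least 1 required, 1012 genes were called, 394 higher and 618 lower. The higher and lower calls were then 2 and 80 for inflammatory, 31 and 4 for lipid, 2 and 15 for hypoxic, 5 and 50 for matrix, and 7 and 11 for epithelial lists, so the respiratory chain and most glycolysis calls were of smaller size. With a filter at 5 FPKM, fewer genes were tested, and 5 inflammatory genes were called higher, 11 epithelial genes lower, and 268 genes higher in the difference between pairs. Leaving out 1 value of a group, in a random order within each gene, gave 5343 to 5462 calls, 2665 to 2757 higher and 2663 to 2705 lower. The higher and lower ranges were 6 to 9 and 102 to 104 for inflammatory, 53 to 57 and 12 to 14 for lipid, 40 to 43 and 38 to 40 for hypoxic, 13 to 16 and 75 to 76 for matrix, and 19 to 22 and 15 to 17 for epithelial lists. Scaling by the median ratio gave 2755 higher and 3290 lower calls, and equal summed FPKM 2649 and 3398; the log2 factors were at most 0.051 in size in the scramble groups. Of 41 list medians, 19 moved by more than the spread between replicates with no filter on low values, 9 with a pseudocount of 0.1 and 8 with the filter at 5 FPKM. With no filter the median was -1.15 for inflammatory lists together, -0.43 for collagens, -0.19 for acute-phase genes, -0.08 for laminins and -0.06 for integrins; with a pseudocount of 0.1 it was -4.14 for chemokines and -2.32 for cytokines. Of these moved medians, that of all epithelial lists changed sign with no filter (-0.005) and that of the RNA interference machinery with the filter at 5 FPKM (0.04). Of 333 named genes that were called, none changed direction in any of these settings. Most of them were named for a low adjusted p or a large difference, so this says little of other genes. Called genes near the threshold, among them CD55, CFD, ELOVL1, NDUFS5, ADAMTS1, CDH4, KRT8, KRT18, ITGB2, TGM2, ADAR, EP300, CREBBP, HIF1AN, HADH and ECI2, lost the call in at least 1 setting beside the size limit, and the uncalled HIF1A, PNPLA2, COL18A1, PMVK, CHUK, CYR61 and TGFB1 gained it in at least 1. Depth is unknown, so no detection limit can be given.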

Other observations

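Lists outside the 5 programmes were measured as well; over all genes tested, 25.5% rose and 25.1% fell. Genes of the unfolded protein response had 2 rises and 12 falls among 19 tested, with a median of -0.35: the chaperone gene HSPA5 stood at 192, 204 and 216 FPKM with the scramble shRNA and 131, 139 and 141 FPKM with the scramble siRNA, and the transcription factor gene XBP1 fell (-0.803). The integrated stress and amino acid response had 9 rises (31.0%) and 8 falls (27.6%) among 29, near the shares over all genes, with a median of -0.002; the serine synthesis gene PHGDH rose by 1.06, the stress gene NUPR1 fell (-1.84), and ATF4 was not called at -0.03. NRF2 targets and iron storage genes had 6 rises and 9 falls among 25 (median -0.16). FTH1, the ferritin heavy chain, fell from 1943, 2049 and 2049 to 906, 911 and 940.1 FPKM, and NQO1 (-0.99), whereas the cystine transporter gene SLC7A11 rose by 1.02 and GSR by 1.09. AKR1C1 and AKR1C3 fell (-2.15 and -1.73), with reads that their close copies may share. Metallothionein genes and their regulators had 1 rise and 4 falls among 7. MT2A stood at 7100.1, 7723 and 8623 and 3916, 4272 and 4298 FPKM, and MT1F, which has close copies, at 59.2, 69.9 and 79.8 and 0, 0 and 0.442 FPKM, while the zinc exporter gene SLC30A1 rose by 1.19.

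Proliferation genes had no common direction: S phase genes had 12 rises and 6 falls among 48 (median 0.02), G2 and mitosis genes 10 and 13 among 51 (median 0.06), and no called difference in either list reached 1. Among p53 targets (6 rises, 30%, and 5 falls, 25%, of 20, near the shares over all genes) the cell cycle inhibitor CDKN1A fell from 49.9, 50.2 and 57.00 to 15.2, 17.4 and 18.7 FPKM and MDM2 rose by 0.87. AP-1, ERK output and EGF ligand genes had 4 rises and 13 falls among 26 (median -0.28). The AP-1 subunit FOSL1 fell from 540.4, 582 and 588 to 236, 258 and 268 FPKM, IER3 (-2.496) and JUNB (-1.45), while the phosphatase gene DUSP1 rose from 61.3, 61.6 and 64.8 to 157, 170.3 and 174 FPKM. ID and BMP response genes had 2 rises and 6 falls among 13 (median -0.53), and the inhibin subunits parted, with -2.401 for INHBA and 2.55 for INHBB. In the RNA interference machinery 4 genes rose (28.6%) and 2 fell (14.3%) of 14 (median -0.05), a difference from the shares over all genes that was not tested: TARBP2 rose by 0.74, DROSHA by 0.44 and the exporter gene XPO5 by 0.31, and DICER1 and AGO3 fell (-0.48 and -0.496). Among PRC2 subunits and H3K27 demethylases 3 rose and 5 fell of 13; JARID2 fell from 15.4, 15.7 and 15.8 to 8.74, 8.800 and 8.94 FPKM, and the demethylase gene KDM6A (-0.86).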
